A study of Homo sapiens with 13 samples.

Results

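The Notch genes described here are 4 receptors (NOTCH1, NOTCH2, NOTCH3 and NOTCH4), 3 ligands (JAG1, JAG2 and DLL1) and 2 target genes (HES1 and HEY1), chosen by symbol. All 9 were in the bulk table, among 57820 gene identifiers, and 7 were in the single-cell table, among 15005 genes. JAG2 and DLL1 were not analysed in single cells here, and every gene of that table had a count in at least 20 cells. The tumours were grown from BM1, a bone-tropic derivative of the human triple-negative breast cancer line MDA-MB-231. In the bulk experiment, 5 KMT5C tumours were set against 5 CTRL tumours. KMT5C tumours came from BM1 cells made stably to overexpress human KMT5C, a histone H4 lysine 20 methyltransferase, by lentiviral transduction and selection, and CTRL tumours from cells given the vector pLV-EF1a-IRES-Hygro. Each athymic nude mouse (Charles River) received 1000000 cells in the mammary fat pad, and the whole tumours were taken after 4 weeks. In the single-cell experiment, 3 RKIP tumours were paired with 3 CTRL tumours in 3 replicate experiments. RKIP tumours came from BM1 cells carrying RKIP-S153E, a form of an inhibitor of the RAF kinase cascade, and their CTRL tumours from BM1-VC vector cells, with 1000000 cells per mouse (Harlan Envigo) and 3 weeks of growth. These tumours were broken up into single cells, mouse cells and dead cells were taken out, and the rest were run on the Fluidigm C1 HT system. The labels do not say whether a stable line was 1 clone or a pool, so differences between the cell lines of an experiment that preceded the construct cannot be told apart from those due to it.

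Notch signalling passes between touching cells. A ligand of the Jagged or Delta family on one cell binds a Notch receptor on its neighbour, the receptor is cut first by an ADAM protease and then by gamma-secretase, and the freed intracellular part enters the nucleus, where it joins RBPJ and a Mastermind protein and turns on targets such as HES1 and HEY1, transcriptional repressors themselves. HES1 also limits its own transcription and is turned on by other signals. In breast cancer JAG1 is known as a ligand that tumour cells present to cells of the bone, and NOTCH4, first found as a mouse mammary tumour virus integration site, is known mainly from endothelial cells.

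The bulk libraries held 37050750 to 49536763 counts in the KMT5C tumours and 41665268 to 48003278 counts in the CTRL tumours. KMT5C itself was at 99.8 to 145.2 CPM (counts per 1000000 counts of the scaled library) in KMT5C tumours and at 7.16 to 11.2 CPM in CTRL tumours. The single-cell tumours held 256 to 274 cells in the RKIP arm and 247 to 267 cells in the CTRL arm. Median counts per cell were 90591, 57023 and 73751 in RKIP tumours 1, 2 and 3, against 95289, 55704 and 66420.5 in CTRL tumours 1, 2 and 3. Both tumours of experiment 1 had the most counts and the fewest genes per cell, with medians of 3305 genes in RKIP and 3130 in CTRL against 4361 to 4953.5 in the other 4 tumours. The markers chosen for the line were VIM, CD44, EGFR, AXL, MSN and S100A4. Together they made up 10267 to 14023 CPM in KMT5C tumours and 9856 to 12162 CPM in CTRL tumours, most of it VIM. Of these 6 markers 1 had an edgeR adjusted p under 0.05, beside 2.96% of all genes tested. That was MSN, at 2276 CPM in KMT5C tumours and 1690 CPM in CTRL tumours (edgeR adjusted p = 0.0256). S100A4 was at 433.6 CPM in KMT5C tumours and 577.7 CPM in CTRL tumours (edgeR adjusted p = 0.0503). The epithelial and hormone receptor markers expected to be low in the line were ESR1, PGR, CDH1, ERBB2 and EPCAM. Together they made up 85.7 to 92.5 CPM in KMT5C tumours and 82.7 to 98.0 CPM in CTRL tumours. Most of this was ERBB2, at 80.1 CPM in KMT5C tumours and 78.7 CPM in CTRL tumours. EPCAM averaged 9.21 and 9.68 CPM, and ESR1, PGR and CDH1 averaged under 1 CPM in both arms.

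The letters in front of HES1 and NOTCH4 are shown because HES1 is the most widely counted member in single cells and NOTCH4 is the only member whose bulk level passed the test. Both are the 250 bases before the gene's start in RefSeq, build GRCh38.p14, read 5′ to 3′ on the gene's strand. HES1 lies on the plus strand at chr3:194135898-194136147 and NOTCH4 on the minus strand at chr6:32224068-32224317. Capitals mark GTGGGAA and TGGGAA, the core letters bound by RBPJ, in HES1, and TGACTCA, the letters bound by AP-1, in NOTCH4.
HES1: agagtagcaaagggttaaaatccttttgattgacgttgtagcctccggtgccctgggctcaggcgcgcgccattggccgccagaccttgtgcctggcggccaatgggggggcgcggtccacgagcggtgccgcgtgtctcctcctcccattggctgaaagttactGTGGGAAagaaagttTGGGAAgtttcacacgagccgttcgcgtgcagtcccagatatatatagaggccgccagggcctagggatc
NOTCH4: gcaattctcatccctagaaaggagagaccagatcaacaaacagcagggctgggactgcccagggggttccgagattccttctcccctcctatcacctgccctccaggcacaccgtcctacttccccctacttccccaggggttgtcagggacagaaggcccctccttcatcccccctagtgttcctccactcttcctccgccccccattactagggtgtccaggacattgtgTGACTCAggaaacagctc
In HES1 the 7 letters of GTGGGAA began 85 bases before the start and contained 1 match of TGGGAA, and a separate TGGGAA began 70 bases before it. Searched on both strands, GTGGGAA was in 5.46% and TGGGAA in 21.1% of the 27305 RefSeq promoter windows of that length, and 2.92% held at least 2 matches of TGGGAA. In NOTCH4 TGACTCA began 18 bases before the start, and 4.16% of the windows held it on either strand. That motif was chosen after the sequence had been seen, and a match is a description of letters, not of binding. The table used held promoters for 7 of the 9 members.

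In the KMT5C tumours NOTCH4 was lower than in CTRL tumours, and no other member passed the test. JAG1 and NOTCH2 had higher means and HEY1 a lower mean in KMT5C tumours, without passing it. HES1 and NOTCH1 differed by less than the spread between tumours, and the estimates of the weakly counted NOTCH3, JAG2 and DLL1 had wide intervals. The comparison asks what a sustained excess of KMT5C does to expression in the tumours. Of the 9 members 1 was called, with edgeR's quasi-likelihood test and Benjamini-Hochberg adjusted p under 0.05, and log2 values are KMT5C over CTRL. Across the transcriptome 2.96% of the 17947 genes tested were called, 1.9% lower and 1.06% higher.

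NOTCH4 (ENSG00000204301.5, chromosome 6) was measured at 19.5, 20.2, 22.2, 21.7 and 18.6 CPM in KMT5C tumours 807, 809, 816, 820 and 823, against 25.0, 31.5, 27.5, 23.1 and 30.1 CPM in CTRL tumours 801, 803, 804, 813 and 815. Every KMT5C tumour lay below every CTRL tumour, with 22.2 and 23.1 CPM as the nearest values. Over all genes tested 5.7% had arms that did not overlap, and 3.26% had them with KMT5C lower. NOTCH4 averaged 20.4 ± 1.51 CPM in KMT5C tumours and 27.5 ± 3.48 CPM in CTRL tumours (SD, n = 5 each), or -0.43 on the log2 scale (SE 0.09; edgeR adjusted p = 0.0185). The call was lost when any 1 of 3 tumours was left out, with edgeR adjusted p = 0.0567 without KMT5C tumour 807, 0.0589 without CTRL tumour 803 and 0.0558 without CTRL tumour 815, while the fold change stayed between -0.47 and -0.37 over all 10 omissions. It was also lost with a covariate of skeletal muscle markers (-0.35, SE 0.17, edgeR adjusted p = 0.518) or of endothelial markers (-0.44, SE 0.15, edgeR adjusted p = 0.363).

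Several measured facts stand beside this fall. In whole tumours, fewer cells that express a gene and less RNA of it per cell cannot be told apart. Host vessels, muscle, leukocytes and fibroblasts are mouse cells, while the counts are of human genes. How far mouse reads reached those genes is not given. Low or absent marker counts therefore do not measure how few host cells a tumour held. The summed level of the endothelial markers was 276.4 to 351.2 CPM in KMT5C tumours and 285.9 to 355.5 CPM in CTRL tumours, and 1 of the 11 tested was called: TIE1, a receptor kinase of vessels, was lower at 40.0 ± 8.71 CPM in KMT5C tumours against 61.8 ± 11.7 CPM in CTRL tumours (SD, n = 5 each; edgeR adjusted p = 0.0254), a call that 5 of 15 alternatives kept. The defining endothelial markers VWF, CLDN5, EMCN and PLVAP and the factor ERG were under 1 CPM on average in both arms. CDH5, the cadherin of endothelial junctions, was at 1.49 ± 0.447 CPM in KMT5C tumours and 2.53 ± 0.678 CPM in CTRL tumours (-0.76 on the log2 scale with SE 0.22; edgeR adjusted p = 0.0749). KDR was at 5.98 CPM in KMT5C tumours and 5.85 CPM in CTRL tumours, and EGFL7, FLT1 and TEK averaged 1.04 to 2.47 CPM in KMT5C tumours and 1.18 to 2.54 CPM in CTRL tumours. Most of the endothelial sum was ESAM and ROBO4, and both were also counted in single tumour cells after mouse cell depletion. The mean log2 CPM of the endothelial markers, which served as the covariate, was 1.76 to 1.97 in KMT5C tumours and 1.91 to 2.14 in CTRL tumours. Skeletal muscle markers summed to 28.2 to 54.8 CPM in KMT5C tumours and 13.2 to 24.6 CPM in CTRL tumours, without overlap, and 7 of the 10 tested were called higher in KMT5C. Mural markers summed to 55.2 to 73.0 CPM in KMT5C tumours and 54.7 to 61.8 CPM in CTRL tumours, with 0 of 9 called. Leukocyte markers summed to 94.0 to 123.3 CPM in KMT5C tumours and 125.2 to 172.7 CPM in CTRL tumours, without overlap and with 1 of 5 called. That was LAPTM5, which was lower at 89.6 ± 10.8 CPM in KMT5C tumours against 140.4 ± 19.8 CPM in CTRL tumours (SD, n = 5 each; edgeR adjusted p = 0.00204) and made up most of the sum. It was also at 104.4 CPM in RKIP and 98.2 CPM in CTRL single tumour cells after mouse cell depletion. In bulk tumours PTPRC, CD68, FCER1G, ITGAM and AIF1 averaged under 1 CPM in both arms, and TYROBP, C1QA and C1QB were at 0. CD14 averaged 0.81 CPM in KMT5C tumours and 1.13 CPM in CTRL tumours, and CSF1R 10.1 and 11.4 CPM. CSF1R was also counted in single cells, at 6.73 CPM in RKIP and 2.09 CPM in CTRL. Fibroblast markers summed to 427.6 to 984.5 CPM in KMT5C tumours and 336.8 to 891.6 CPM in CTRL tumours, with 0 of 4 called. Their part in the NOTCH4 difference was not tested. NOTCH4 shares 98 exonic bases on the same strand with GPSM3, a regulator of G protein signalling, which was at 52.4 ± 5.88 CPM in KMT5C tumours and 51.5 ± 4.24 CPM in CTRL tumours (edgeR adjusted p = 0.926).

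NOTCH2 (ENSG00000134250.13, chromosome 1) had the highest level per kilobase of exon among the receptors. It was measured at 202.1, 216.5, 215.2, 276.1 and 212.9 CPM in the 5 KMT5C tumours, in the order given above, against 246.6, 149.2, 128.5, 214.2 and 204.1 CPM in the 5 CTRL tumours. The arms overlapped, with 2 CTRL tumours far below all others and KMT5C tumour 820 above all others. Means were 224.6 ± 29.3 CPM in KMT5C tumours and 188.5 ± 48.6 CPM in CTRL tumours (SD, n = 5 each), a difference of 0.25 on the log2 scale (SE 0.15; edgeR adjusted p = 0.414). Its spread within the arms, 0.30 as an SD on the log2 scale, lay at percentile 97.7 of the 10128 genes whose mean log2 CPM reached 3, and whose median SD was 0.14. NOTCH2NLA, a partial copy of NOTCH2 between which reads can be split, was not analysed in bulk tumours here. In the single-cell table it was at 0.653 to 1.02 CPM in RKIP tumours and 0.0696 to 0.735 CPM in CTRL tumours.

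NOTCH1 (ENSG00000148400.9, chromosome 9) was measured at 23.5, 32.0, 26.5, 28.0 and 22.3 CPM in KMT5C tumours, against 26.8, 23.9, 24.6, 33.7 and 28.3 CPM in CTRL tumours. The arms overlapped over almost their whole ranges (-0.05 on the log2 scale with SE 0.11; edgeR adjusted p = 0.856), and the estimate ± 2 SE ran from -0.28 to 0.17. NOTCH3 (ENSG00000074181.4, chromosome 19), the receptor known from mural cells, was low at 2.05, 5.22, 2.43, 3.14 and 2.55 CPM in KMT5C tumours, against 3.17, 1.69, 1.32, 6.50 and 1.83 CPM in CTRL tumours. A single tumour of each arm, KMT5C 809 and CTRL 813, held the highest values, and its estimate of 0.08 (SE 0.41, edgeR adjusted p = 0.949) ran from -0.74 to 0.90 at ± 2 SE. The same 2 tumours also had the highest NOTCH1 of their arms.

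Set against exon length, NOTCH2 held the largest share of the receptors in both arms. Of the summed receptor level per kilobase, NOTCH2 made up 72.8 ± 2.53% in KMT5C tumours and 65.3 ± 5.54% in CTRL tumours (SD, n = 5 each). NOTCH4 made up 11.5 ± 0.941% in KMT5C tumours and 17.2 ± 4.69% in CTRL tumours, and NOTCH1 13.9 ± 1.66% in KMT5C tumours and 15.8 ± 2.08% in CTRL tumours. NOTCH3 was under 4% of the receptor sum in every tumour. These shares are a description and were not tested.

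JAG1 (ENSG00000101384.7, chromosome 20) had by far the highest level per kilobase of exon among the ligands. It was measured at 406.2, 375.4, 423.8, 427.7 and 341.7 CPM in KMT5C tumours, against 347.0, 308.3, 311.9, 315.2 and 371.6 CPM in CTRL tumours. All KMT5C tumours except 823 lay above every CTRL tumour, and 823 lay among them. Means were 394.9 ± 36.2 CPM in KMT5C tumours and 330.8 ± 27.5 CPM in CTRL tumours (SD, n = 5 each), a difference of 0.26 on the log2 scale (SE 0.08; edgeR adjusted p = 0.103). JAG1 was called by DESeq2 (0.27, adjusted p = 0.0249) and, with edgeR, without KMT5C tumour 823 (0.30, adjusted p = 0.0407). The other ligands were near the limit of counting. JAG2 (ENSG00000184916.4, chromosome 14) was at 0.797, 0.629, 0.789, 1.34 and 0.603 CPM in KMT5C tumours, against 0.852, 0.802, 0.760, 0.958 and 0.693 CPM in CTRL tumours, which is 23 to 65 counts per tumour. DLL1 (ENSG00000198719.7, chromosome 6) was at 0.409, 0.301, 0.291, 0.475 and 0.348 CPM in KMT5C tumours, against 0.325, 0.368, 0.673, 0.388 and 0.3004 CPM in CTRL tumours, which is 11 to 31 counts per tumour. Their arms overlapped, with log2 fold changes of 0.04 (SE 0.24) for JAG2 and -0.16 (SE 0.29) for DLL1. Strand use in counting is not given, and JAG1 overlaps AL050403.2 on the other strand by 79 exonic bases and JAG2 overlaps AL512356.1 on its own strand by 252, so reads there are uncertain.

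Of the targets, HES1 (ENSG00000114315.3, chromosome 3) was measured at 27.1, 27.6, 33.9, 26.04 and 28.4 CPM in KMT5C tumours, against 25.2, 28.0, 40.2, 25.3 and 30.3 CPM in CTRL tumours. The arms overlapped throughout (-0.06 on the log2 scale with SE 0.12; edgeR adjusted p = 0.860), and the estimate ± 2 SE ran from -0.30 to 0.18. HEY1 (ENSG00000164683.12, chromosome 8) was at 10.1, 10.8, 8.63, 8.87 and 9.25 CPM in KMT5C tumours, against 10.1, 9.56, 14.5, 13.3 and 11.3 CPM in CTRL tumours. The 3 highest values were all in CTRL tumours, and the other 2 CTRL tumours lay among the KMT5C ones (-0.30 on the log2 scale with SE 0.12; edgeR unadjusted p = 0.0215, adjusted p = 0.199). An unadjusted p under 0.05 was met by NOTCH4, JAG1 and HEY1 among the members and by 16.8% of all genes tested.

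**Figure D1:**
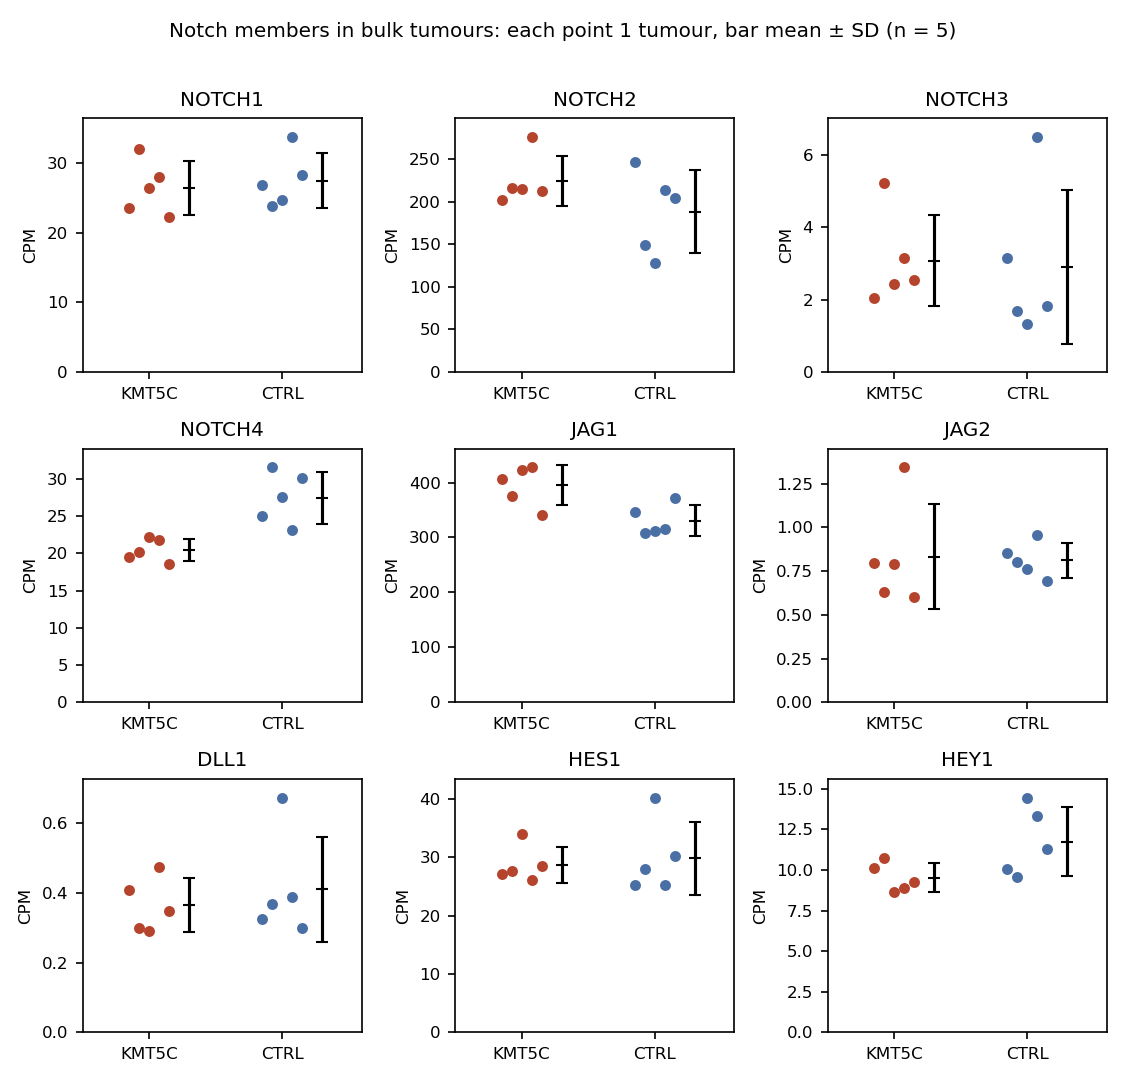
CPM (vertical axis, from 0, 1 scale per gene) of the 9 members in each KMT5C tumour (left) and CTRL tumour (right), with bars for the mean ± SD of 5 tumours. NOTCH4 is the member whose arms do not overlap, at 18.6 to 22.2 CPM in KMT5C tumours and 23.1 to 31.5 CPM in CTRL tumours.

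The level per kilobase of exon placed JAG1 first, at 42.5 ± 3.90 CPM per kilobase in KMT5C tumours and 35.6 ± 2.96 in CTRL tumours (SD, n = 5 each). HES1 followed at 13.9 ± 1.496 CPM per kilobase in KMT5C tumours and 14.4 ± 3.00 in CTRL tumours, and NOTCH2 at 13.4 ± 1.75 in KMT5C tumours and 11.2 ± 2.89 in CTRL tumours. These means of HES1 and NOTCH2 differed by less than their SDs in KMT5C tumours and by more than either SD in CTRL tumours. HEY1 was at 2.95 ± 0.277 in KMT5C tumours and 3.64 ± 0.651 in CTRL tumours. NOTCH1 was at 2.55 ± 0.370 in KMT5C tumours and 2.65 ± 0.376 in CTRL tumours, and NOTCH4 at 2.10 ± 0.155 in KMT5C tumours and 2.82 ± 0.357 in CTRL tumours, so the order of these receptors differed between the arms, and in CTRL tumours their means differed by less than their SDs. NOTCH3 lay far below at 0.328 ± 0.134 in KMT5C tumours and 0.309 ± 0.227 in CTRL tumours. JAG2 and DLL1 came last, between 0.113 and 0.130 CPM per kilobase in both arms, and did not differ beyond their spread.

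The genes whose levels moved most like a member from tumour to tumour, once each arm's mean had been removed, were taken by Pearson's r of log2 CPM over the 10 tumours among 10127 other genes. For JAG1 they were TRIM56 (0.98), NBPF1 (0.96) and PLXNA2 (0.96). For NOTCH4 they were AP5S1 (0.93), CDKN2C (0.91) and FBXO4 (0.90), and for HES1 ACP6 (0.95), FAHD1 (0.92) and RAB11FIP3 (0.92). Among the members themselves the relations were weaker. JAG1 had r of 0.50 with NOTCH2 and -0.06 with HES1, and HES1 had -0.72 with NOTCH2 and 0.35 with HEY1. These are descriptions of 10 libraries, which also share differences in composition, and the highest of so many correlations is high by selection.

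Around the members, the other genes of the pathway mostly lay close to 0. Of 68 such genes in 5 lists, 63 were tested in bulk tumours, 1 rose and 1 fell, beside 2.96% called over all genes, and their median log2 fold change was 0.02 against 0.00 over all genes. Among the 17 tested genes that modify or move receptors and ligands, NUMB, an endocytic adaptor that lowers Notch at the membrane, rose to 145.2 ± 5.01 CPM in KMT5C tumours against 116.7 ± 9.51 CPM in CTRL tumours (SD, n = 5 each), a difference of 0.32 on the log2 scale (SE 0.07; edgeR adjusted p = 0.0167). DTX3, of the Deltex ubiquitin ligase family, fell to 24.3 ± 1.21 CPM in KMT5C tumours against 34.0 ± 4.08 CPM in CTRL tumours (-0.48, SE 0.09, edgeR adjusted p = 0.00524). For both of these genes the KMT5C and CTRL tumours did not overlap, as for 5.7% of all genes tested.

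None of the 4 tested further ligands, 8 proteases, 20 nuclear factors or 14 further targets was called. The further ligands, at 1.02 to 6.19 CPM on average, had log2 fold changes of -0.66 to 0.10, and the further targets -0.43 to 0.41. The protease with the largest difference was ADAM17, which sheds membrane proteins and can cut Notch, at 66.4 ± 2.77 CPM in KMT5C tumours and 59.7 ± 13.7 CPM in CTRL tumours (0.15 on the log2 scale, edgeR adjusted p = 0.596). The nuclear factor with the largest difference was MAML2, a Mastermind coactivator, at 59.2 ± 4.30 CPM in KMT5C tumours and 49.1 ± 10.6 CPM in CTRL tumours (log2 fold change 0.27, edgeR adjusted p = 0.272). Among further targets whose mean log2 CPM reached 3 it was PLAU, the urokinase protease, at 867.7 ± 55.3 CPM in KMT5C tumours and 772.9 ± 77.8 CPM in CTRL tumours (0.17, edgeR adjusted p = 0.328). Below that level HES2, a repressor of the HES family named after its values had been seen, had a larger difference, at 7.36 ± 0.203 CPM in KMT5C tumours and 5.54 ± 0.812 CPM in CTRL tumours, without overlap (0.41 with SE 0.11; edgeR adjusted p = 0.0563). HES2 was called by DESeq2 (adjusted p = 0.00973) and, with edgeR, without CTRL tumour 813 (0.49, adjusted p = 0.0282), and was 0.22 with the endothelial covariate. Leaving out 1 tumour ended the NUMB call in 2 of 10 cases (KMT5C tumour 820 or CTRL tumour 803, edgeR adjusted p = 0.0540 and 0.0545). It ended the DTX3 call in none. With the muscle or the endothelial covariate 0 of these 63 genes were called, at log2 fold changes of 0.31 and 0.30 for NUMB and -0.55 and -0.45 for DTX3, with larger standard errors.

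**Figure D2:**
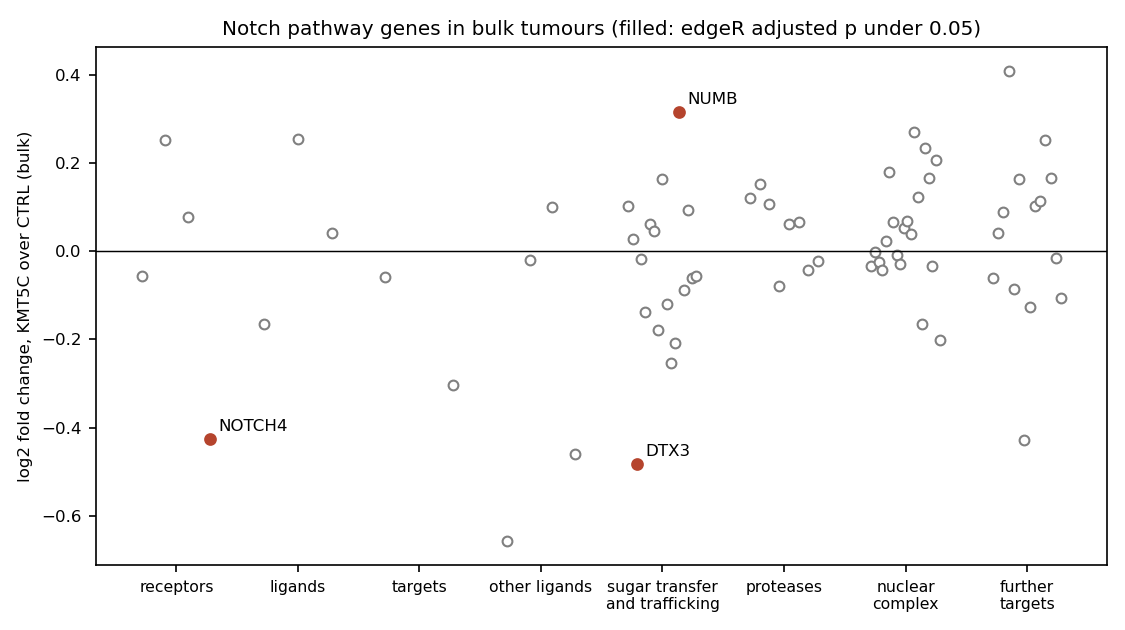
Log2 fold change of KMT5C over CTRL (vertical axis) in bulk tumours for each tested Notch gene, in 8 columns for the receptors, ligands and targets described here and 5 further pathway lists. Each point is a gene, and filled points have an edgeR adjusted p under 0.05: NOTCH4 at -0.43, NUMB at 0.32 and DTX3 at -0.48.

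In single cells of RKIP tumours no member passed the test. HES1 was lower and HEY1 and NOTCH1 were higher in RKIP than in CTRL in all 3 experiments, while NOTCH2, NOTCH3, NOTCH4 and JAG1 had no common direction. Log2 values here are RKIP over CTRL. Counts were summed over the cells of each tumour and compared within the 3 pairs. Of 14755 genes tested 0.00678% were called, which is 1 gene, the sequence listed as ratpebp1 (rat Pebp1, the RKIP gene), and 3.94% had an unadjusted p under 0.05, which none of the 7 members had. Of the 7 members 3 differed in the same direction in all 3 pairs, as did 26.9% of all genes tested. The comparison asks how RKIP alters expression, and its variation, among tumour cells.

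HES1 was at 363.3, 315.1 and 387.3 CPM in RKIP tumours 1, 2 and 3, against 428.6, 377.5 and 408.1 CPM in CTRL tumours 1, 2 and 3. It was lower in RKIP in each pair, although the ranges overlapped (-0.19 on the log2 scale with SE 0.11; edgeR unadjusted p = 0.116, adjusted p = 0.976). HEY1 was at 9.01, 5.07 and 12.5 CPM in RKIP tumours, against 6.16, 3.80 and 7.53 CPM in CTRL tumours. It was higher in RKIP in each pair (0.57, SE 0.46, edgeR adjusted p = 0.976), from 101 to 357 counts per RKIP tumour and 75 to 205 counts per CTRL tumour. One cell held 11.9 to 25.0% of those counts in an RKIP tumour and 13.3 to 32.2% in a CTRL tumour.

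JAG1 was at 145.1, 175.9 and 121.4 CPM in RKIP tumours, against 218.6, 143.3 and 150.5 CPM in CTRL tumours. It was lower in RKIP in experiments 1 and 3 and higher in experiment 2 (-0.20 on the log2 scale with SE 0.20; edgeR adjusted p = 0.976), and ran from -0.45 without experiment 2 to -0.01 without experiment 1. NOTCH2 was at 33.1, 56.6 and 46.1 CPM in RKIP tumours, against 38.7, 45.6 and 47.6 CPM in CTRL tumours, with no common direction (0.01, SE 0.23, edgeR adjusted p = 0.998). Its estimate ± 2 SE ran from -0.44 to 0.47, and with equal weights for cells it was 0.40 (SE 0.22).

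NOTCH4 was at 5.02, 13.7 and 23.3 CPM in RKIP tumours, against 10.4, 20.9 and 21.3 CPM in CTRL tumours. It was lower in RKIP in experiments 1 and 2 and slightly higher in experiment 3 (-0.51 on the log2 scale with SE 0.38; edgeR adjusted p = 0.976), and the 2 tumours of experiment 1 were the lowest of their arms. Without experiment 1 the difference was -0.23 and without experiment 3 -0.83. The highest cell held 30.5% of NOTCH4 counts in RKIP tumour 1 and 23.5% in CTRL tumour 1, and 8.79 to 17.7% in the other tumours. RKIP tumour 1 also had the smallest share of cells with a ratpebp1 count among the RKIP tumours. With all counts used, that share was 8.65% against 44.5 and 59.4% in RKIP tumours 2 and 3. NOTCH1 was at 3.54, 5.47 and 5.71 CPM in RKIP tumours, against 1.77, 4.10 and 4.15 CPM in CTRL tumours, higher in RKIP in each pair (0.62, SE 0.61, edgeR adjusted p = 0.976). It rests on 109 to 163 counts per RKIP tumour and 51 to 113 counts per CTRL tumour. The highest cell held 15.3 to 34.9% of the NOTCH1 counts in an RKIP tumour and 14.8 to 45.1% in a CTRL tumour. NOTCH3 was at 0.481, 0.402 and 1.02 CPM in RKIP tumours, against 1.53, 1.52 and 0.220 CPM in CTRL tumours, on at most 29 counts per RKIP tumour and 44 counts per CTRL tumour. No direction can be read at that depth (-0.63, SE 1.15).

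**Figure D3:**
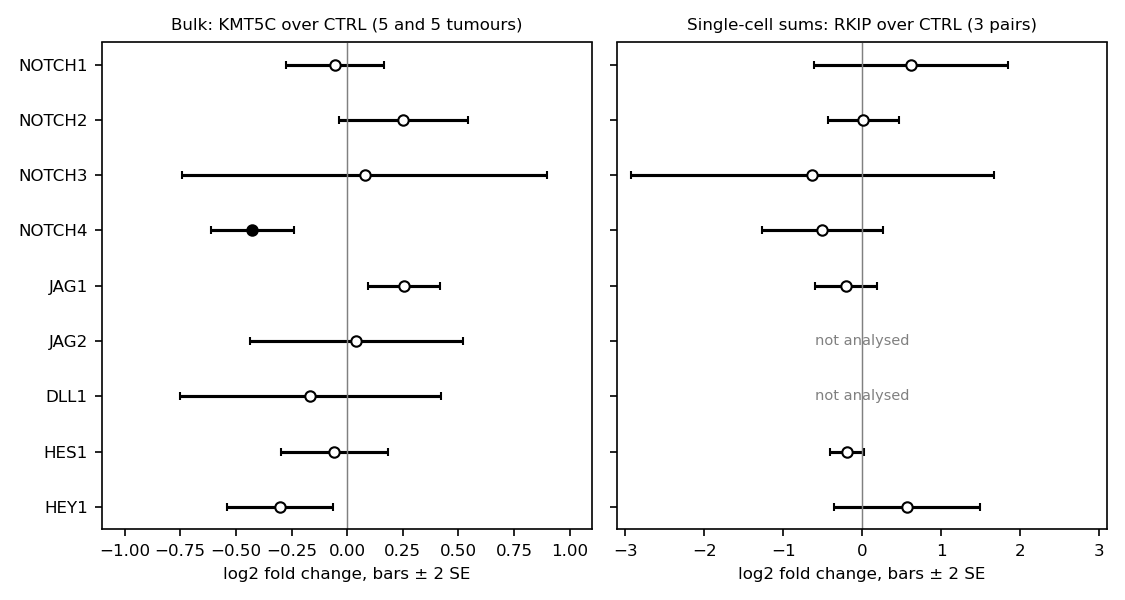
Log2 fold change of each member (horizontal axes, on different scales) as points with bars of ± 2 SE, for KMT5C over CTRL in bulk tumours (left) and RKIP over CTRL in summed single cells (right). The filled point, NOTCH4 in bulk at -0.43, is the member called by edgeR, and every single-cell interval spans 0.

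A member's share of cells depends on depth, so cells were thinned to 20000 counts each, which left out 87 shallower cells, 39 of them RKIP and 48 CTRL. Of the receptors, NOTCH2 was counted in the most cells: 18.5, 30.1 and 34.0% of cells in RKIP tumours 1, 2 and 3, against 16.6, 29.3 and 33.8% in CTRL tumours 1, 2 and 3. NOTCH4 was counted in 2.69, 12.5 and 11.2% of cells in RKIP tumours, against 6.22, 16.3 and 17.3% in CTRL tumours. In each pair the RKIP share of NOTCH4 was the lower, by 4.46 ± 1.42 percentage points on average (SD, n = 3 pairs; exact two-sided sign-flip p = 0.25, the smallest that 3 pairs allow). Without thinning the NOTCH4 shares were 3.76, 19.3 and 24.6% in RKIP tumours, against 9.31, 26.6 and 26.7% in CTRL tumours. At 10000 counts per cell the mean difference of NOTCH4 was smaller, at -2.08 percentage points. A common direction was not particular to NOTCH4. At 20000 counts the NOTCH3 share was also lower in RKIP in each pair, and the NOTCH1, NOTCH2 and JAG1 shares were higher. How many of all genes have a common direction of share was not counted.

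As a gauge of counts that reach cells which lack a gene, ratpebp1 was counted in 3.85, 29.3 and 41.1% of thinned RKIP cells, against 0, 1.63 and 1.27% of thinned CTRL cells. For the 0 of 241 cells the upper end of the exact 95% binomial interval was 1.52%, and the floor of 3 counts was 1.24%. NOTCH1 shares were 2.69, 5.08 and 4.56% of cells in RKIP tumours against 2.07, 3.66 and 3.80% in CTRL tumours. In both tumours of experiments 2 and 3 the lower ends of their exact 95% binomial intervals were 1.69 to 2.73%. These lay above the gauge's shares of 1.63 and 1.27% in CTRL tumours 2 and 3. They lay below the upper ends of the gauge's own intervals, 4.11 and 3.65%, so NOTCH1 is not clearly told from background in those experiments. In experiment 1 the lower ends of NOTCH1 were 1.09% in RKIP and 0.677% in CTRL, so it cannot be told from background there, nor can NOTCH4 in RKIP tumour 1 with a lower end of 1.09%. NOTCH3 shares, 0.769, 1.17 and 0.830% in RKIP tumours against 2.49, 2.85 and 0.844% in CTRL tumours, had lower ends of at most 1.15% in any tumour and cannot be told from background. HEY1 was counted in 4.23, 7.03 and 6.64% of RKIP cells, against 6.64, 4.88 and 6.75% of CTRL cells, with no common direction. Its lower ends in experiment 2 were 4.22% in RKIP and 2.55% in CTRL. By the gauge's upper end of 4.11%, HEY1 is not clearly told from background in CTRL tumour 2. Its share unthinned was higher in RKIP in each pair, by 3.41 percentage points on average, which the thinned cells did not show.

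JAG1 was counted in 51.2, 66.8 and 65.1% of thinned cells in RKIP tumours, against 47.7, 61.4 and 65.0% in CTRL tumours. HES1 was the most widely counted member, in 78.8, 87.9 and 85.1% of cells in RKIP tumours, against 77.6, 89.4 and 81.9% in CTRL tumours. For JAG1 the mean difference was 3.01 ± 2.65 and for HES1 0.97 ± 2.39 percentage points (SD, n = 3 pairs; exact sign-flip p = 0.25 and 0.75). At 10000 counts per cell both differences had the opposite sign, at -2.61 and -2.16 percentage points, so no direction is drawn from them.

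**Figure D4:**
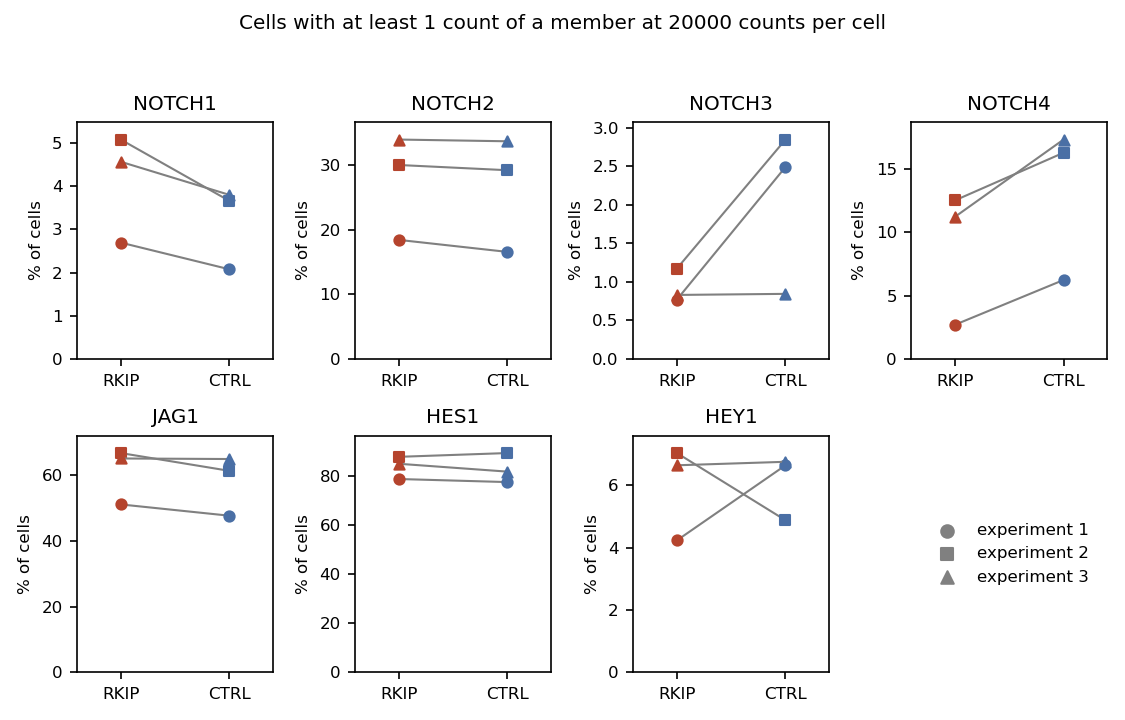
Percent of cells with at least 1 count of a member after thinning to 20000 counts per cell (vertical axes, from 0), with RKIP left and CTRL right and a line joining the 2 tumours of an experiment. The NOTCH4 lines all go up towards CTRL, at 2.69 to 12.5% of cells in RKIP tumours and 6.22 to 17.3% in CTRL tumours. The NOTCH3 lines also all go up, and the NOTCH1, NOTCH2 and JAG1 lines all go down.

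The receptors and JAG1 were counted in overlapping sets of cells. At least 1 receptor was counted in 23.1, 44.1 and 46.9% of RKIP cells, against 25.3, 43.9 and 45.6% of CTRL cells. JAG1 together with a receptor was counted in 13.9, 29.7 and 31.1% of RKIP cells, against 12.5, 26.8 and 32.1% of CTRL cells. For JAG1 and NOTCH2 the joint share, 11.2, 19.1 and 22.4% of RKIP cells against 9.13, 18.7 and 23.6% of CTRL cells, lay close to the product of their separate shares. Those products were 9.44, 20.1 and 22.2% for RKIP cells and 7.92, 17.97 and 21.9% for CTRL cells. More than 1 receptor was counted in 1.54, 4.69 and 3.73% of RKIP cells, against 2.07, 7.72 and 10.1% of CTRL cells.

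The 162 thinned cells with a NOTCH4 count all had a count of VIM, the intermediate filament of the mesenchymal line, and 95.1% had one of CD44. Of the other cells 100% had a count of VIM and 89.8% one of CD44. EGFR was counted in 76.5% of the cells with NOTCH4 against 69.6% of the other cells. AXL, MSN and S100A4 were counted in 92.0, 93.8 and 88.9% against 90.1, 93.25 and 87.7%. Of the 6 endothelial markers in the table, 5 were counted in a larger share of the cells with NOTCH4: ESAM in 35.2% against 25.7% of the other cells, PECAM1 in 13.6% against 8.57%, TIE1 in 8.02% against 4.47%, EGFL7 in 3.09% against 2.05% and KDR in 1.85% against 1.52%. ROBO4 was counted in 11.7% of them against 14.2% of the other cells. Line markers other than VIM thus also had larger shares in the cells with NOTCH4. These shares pool the cells of all 6 tumours and were not tested. Both tumours of experiment 1, with the fewest genes per cell, had the lowest NOTCH4 shares of their arms, 2.69% in RKIP and 6.22% in CTRL. Joint expression and the number of genes counted in a cell cannot be told apart here. CDH5, VWF, CLDN5, EMCN, ERG and PLVAP, further endothelial markers, were not analysed in single cells here.

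HES1 had its closest neighbours across cells outside the pathway. The genes ranked highest with it by the median Spearman correlation over the 6 tumours, among 10226 genes, were PLK2 (0.26), GADD45B (0.24), EGR1 (0.24), CCN1 (0.23) and FOSB (0.22), genes known to respond quickly to serum, growth factors or stress. They were named after their values had been seen. Among the members HEY1 ranked 248th (0.10), JAG1 566th (0.09), NOTCH2 3397th (0.04) and NOTCH4 3629th. Genes counted in the same cells share that cell's library, so such correlations are descriptions of weak relations.

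The counts of HES1, JAG1 and NOTCH2 were spread unevenly over the cells. These shares use all counts without thinning, so differences in depth between cells add to them. The top 10% of cells held 40.3 to 56.4% of HES1 counts in RKIP tumours and 48.4 to 54.7% in CTRL tumours. For JAG1 they held 44.1 to 61.8% in RKIP tumours and 55.7 to 70.3% in CTRL tumours, and for NOTCH2 66.7 to 83.0% in RKIP tumours and 67.0 to 87.6% in CTRL tumours. Variation between cells was compared as the residual of the log2 squared coefficient of variation from its trend on the mean, for the 5 members with a thinned mean of at least 0.1. NOTCH2 had residuals of 0.71, 1.37 and 0.45 in RKIP tumours, against -0.58, 0.67 and -0.02 in CTRL tumours. It was higher in RKIP in each pair, by 0.82 (SE 0.42, limma adjusted p = 0.934), and at 10000 counts per cell by 0.29 (SE 0.38) on average. JAG1 had -0.07, 0.21 and -0.05 in RKIP tumours, against 0.22, 1.76 and 0.11 in CTRL tumours, a difference of -0.67 (SE 0.47). Residuals of JAG1 and NOTCH4 were lower in RKIP in each pair, and those of HES1 and HEY1 had no common direction. How many of all genes have a common direction of variation was not counted. The differences were -0.59 (SE 0.45; -0.24 at 10000 counts per cell) for NOTCH4, -0.49 (SE 0.45) for HES1 and 0.56 (SE 0.50) for HEY1. No member was called, nor was any of the 10159 genes tested (0.0%), of which 3.99% had an unadjusted limma p under 0.05, none of them a member.

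Of the other pathway genes 58 were tested in the summed single cells, and 0 were called. Their median log2 fold change was 0.09 against 0.00 over all genes. With edgeR 2 of them had an unadjusted p under 0.05, beside 3.94% of all genes. They were ITCH, a ubiquitin ligase that acts on Notch (0.54), and TLE1, a corepressor used by HES proteins (0.62), named after their values had been seen. With 1 experiment left out ITCH ran from 0.27, without experiment 1, to 0.68 and TLE1 from 0.45 to 0.85.

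The members differed in how their levels compared between the assays. HES1 averaged 404.7 CPM in CTRL single-cell tumours and 29.8 CPM in CTRL bulk tumours, a log2 ratio of 3.74 (pseudocount 0.5) that lay at percentile 99.2 of 11818 genes, whose median was -0.48. JAG1, HEY1 and NOTCH4 had ratios of -0.95, -0.95 and -0.63, nearer to that median. NOTCH2 at -2.09 and NOTCH1 at -2.86 were lower in the single-cell data. The assays differ in tissue handling, chemistry, mouse supplier and time, which cannot be told apart here.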

How the data were processed

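Both deposited tables hold unnormalized counts, as whole numbers for each gene in a tumour or in a cell. The submitters' processing notes name Trim Galore for trimming, STAR for alignment and featureCounts for counting, and the builds hg38 and hg19. Their roles, the strand setting, the use of molecular identifiers and any removal of mouse reads from bulk libraries are not given in the sources used here.

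Bulk symbols came from a table of current names (51996 of 57820 identifiers; the rest held 0.664% of counts), chromosomes and exon lengths from GENCODE 29. Single cells with under 1000 genes were left out (1 of 1569). The start of a cell's column name gave its arm and the ending its experiment. The labels make 1 sample of both tumours of a replicate experiment, so experiment was a block. Deviations from arm means of same-ending tumours correlated at 0.19, 0.08 and 0.20, and those of the other pairs at -0.17 to 0.03. CTRL cells came from chip columns 1 to 10 and RKIP cells from columns 11 to 20, so position and arm cannot be told apart. The experiment numbers are arbitrary.

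Counts were tested with edgeR 4.0.16 (quasi-likelihood, filterByExpr, TMM, robust; R 4.3.3) over all genes, and variation with limma 3.58.1, each two-sided with Benjamini-Hochberg adjustment at 0.05. Standard errors came from the F statistic. CPM uses TMM-scaled libraries. Cells were thinned to 20000 counts (seed 1). The trend of variation was a lowess fit with a fraction of 0.3. Scripts were tested on simulated data. DESeq2 1.42.0, RLE scaling, no filter, each tumour left out, marker covariates, other depths, equal cell weights and no block were tried. Nothing says how independent the cultures behind the tumours were beyond separate mice, so p-values measure the spread between tumours. Floors cover counting error only (3 counts). Named pathway genes were those called, plus the largest difference in each list among genes whose mean log2 CPM reached 3. A pathway gene is not reported here. Members, lists and tests were chosen with earlier results of these data known.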

Additional observations from a re-analysis of the deposited data

Results flagged for a closer look

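In 3 of 18 groups of 5 bulk tumours (9 members in 2 arms) 1 tumour stood far from the other 4 of its arm, by a gap of more than 0.71 of the arm's range. Chance alone does this in about 1 of 20 groups. NOTCH2 was at 276.1 CPM in KMT5C tumour 820, with the other KMT5C tumours at 202.1 to 216.5 CPM. JAG2 was at 1.343 CPM in the same tumour, with the others at 0.603 to 0.797 CPM. DLL1 was at 0.6732 CPM in CTRL tumour 804, with the other CTRL tumours at 0.3004 to 0.388 CPM. Without KMT5C tumour 820 the mean of JAG2 was lower in KMT5C than in CTRL, and without CTRL tumour 804 the mean of DLL1 was higher in KMT5C.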

How the results depend on the processing

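Of 434 recomputed values 359 were classed as the same. For fold changes this means the same direction and the same side of the threshold. Counts of genes called have no direction and could differ within that class. The bulk count over all genes was 531 in the main fit, and 379 without CTRL tumour 815 and 681 without CTRL tumour 801 were classed as the same. NOTCH4 in bulk tumours stayed negative in all 15 alternatives (-0.47 to -0.35) and was called in 10 of them. The count of members called in bulk tumours was 2 with DESeq2, 0 with the muscle covariate and 0 with the endothelial covariate, and 0 to 2 when 1 tumour was left out. The count of other pathway genes called was 6 with DESeq2, 0 with either covariate and 1 to 3 when 1 tumour was left out. Over all genes the bulk count was 1097 with DESeq2, 801 without a filter, 10 with the muscle covariate, 50 with the endothelial covariate and 337 to 681 when 1 tumour was left out. The muscle markers did not overlap between the arms, so that covariate takes up part of the contrast between them. The endothelial mean log2 CPM overlapped little, at 1.76 to 1.97 in KMT5C tumours and 1.91 to 2.14 in CTRL tumours. The same therefore holds for the endothelial covariate.

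Bulk log2 fold changes near 0 changed sign. With the endothelial covariate DLL1 was 0.3815, HES1 0.0208, NOTCH3 -0.2121 and ADAM17 -0.01098. With the muscle covariate JAG2 was -0.3118, NOTCH3 -1.111 and GPSM3 -0.1241. With 1 tumour left out DLL1 ran from -0.2769 to 0.08908, HES1 from -0.1217 to 0.07873, JAG2 from -0.1989 to 0.134, NOTCH1 from -0.1247 to 0.03798, NOTCH3 from -0.1825 to 0.6171 and GPSM3 from -0.02644 to 0.09768. The cause was not tested.

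In single cells 0 members were called under any of 8 alternatives. The fit with no replicate block called 0 genes in all, DESeq2 with the block 60, and equal weights for cells 0. Without the block NOTCH4 was -0.32 and HES1 -0.19, and it changed no member's call. With equal weights NOTCH2 was 0.40, NOTCH4 -0.77, NOTCH1 0.37, NOTCH3 -0.30 and JAG1 -0.13. With 1 experiment left out NOTCH2 ran from -0.13 to 0.14, JAG1 from -0.45 to -0.01, NOTCH4 from -0.83 to -0.23, NOTCH3 from -1.78 to 0.20, and 0 to 1 genes were called. The variation differences with 1 experiment left out ran from 0.58 to 0.99 for NOTCH2, -0.92 to -0.22 for JAG1, -0.86 to -0.25 for NOTCH4, -0.74 to -0.12 for HES1 and 0.04 to 0.89 for HEY1. The RKIP minus CTRL share at 10000 counts per cell was -2.157 percentage points for HES1, 1.116 for HEY1, -2.61 for JAG1 and -0.3181 for NOTCH1, and for unthinned cells 3.409 for HEY1. With 3 pairs and at most 44 NOTCH3 counts per CTRL tumour, the single-cell depth limits NOTCH1, NOTCH3 and HEY1 most.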
